A study of Caenorhabditis elegans with 32 samples.

Results

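The yolk genes of Caenorhabditis elegans, the vitellogenin genes vit-1, vit-2, vit-3, vit-4, vit-5 and vit-6 and the yolk receptor gene rme-2, were followed through 32 RNA-sequencing libraries. They were picked by gene symbol, without regard to any measured value, and 7 of the 46926 genes in the count table carried these symbols, with 1 row each (WBGene00006925, WBGene00006926, WBGene00006927, WBGene00006928, WBGene00006929 and WBGene00006930 for the vitellogenins in that order, and WBGene00004374 for rme-2). All 7 passed the filter on low counts in every test.

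Vitellogenins are large lipoproteins that the intestine of the adult hermaphrodite makes and secretes into the body cavity. Growing oocytes in the germ line take them up by endocytosis through RME-2, a receptor of the low-density lipoprotein receptor family, and the yolk feeds the embryo. The vitellogenin mRNAs thus belong to the intestine and rme-2 mRNA to the germ line, where the RNA-binding protein GLD-1 is known to hold rme-2 translation back until oogenesis. In a whole animal both are read from 1 RNA pool, and fewer cells of a type and less RNA per cell cannot be told apart.

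The study asked how the germ granule protein LOTR-1 and its domains bear on mRNA levels and translation. Worms were grown at 20 C on OP50 bacteria, without treatment, and harvested as whole synchronized hermaphrodites on day 1 of adulthood. The wild type was strain DUP167, with allele sam85, which places a 3xFLAG and GFP tag on lotr-1. The full in-frame deletion (ΔLOTR-1) was DUP207 with allele sam117, the LOTUS domain deletion (ΔLOTUS) was DUP217 with allele sam113, and the Tudor domain deletion (ΔTudor) was DUP185 with allele sam102; the genotype labels of all 4 strains name the tagged lotr-1 locus, so the control is tagged as well. Each genotype is a single strain. Each strain had 4 numbered replicates, and every replicate lysate gave a library of total polyadenylated RNA, called lysate here, and a library of mRNA from its polysomes, the ribosome-loaded fraction of a sucrose gradient.

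Library totals were 31.4 to 40.2 M counts for lysates and 27 to 36.2 M counts for polysomes. The targeted gene lotr-1 stood at 106.9 to 328.8 CPM (counts per 1000000 counts of a normalised library) in wild-type lysates, and those of ΔLOTR-1 were at 28.1 to 80.8 CPM, without overlap. In the polysome libraries labelled ΔLOTR-1 it stood at 41.6 to 124.9 CPM, and wild-type polysomes held 40.6 to 111.4 CPM, so it gives no check of those labels. Libraries stood apart by replicate number more than by strain. Of the variance of log2 CPM in lysates, the number held a median of 86.3% over all genes and the strain 4.62%. For polysomes the medians were 77.8% and 4.91%. After the mean of each strain and fraction was subtracted, each of the 32 libraries correlated best with a library of its own number. That subtraction takes the strain out, so this ranking does not compare number with strain. In the lysates numbered 4 against those numbered 1 and 2, the summed markers of oocytes were at 1080 to 1822 CPM against 5679 to 7250 CPM, with 9 of 9 markers lower in every library. Sperm markers were at 345 to 392 CPM against 19.9 to 60.1 CPM (7 of 8 higher), larval moult markers at 123.5 to 631 CPM against 48.0 to 76.0 CPM (4 of 9 higher), intestine markers at 5172 to 5806 CPM against 2878 to 3522 CPM (6 of 7 higher, 1 lower) and embryo markers at 29.5 to 37.5 CPM against 21.1 to 27.3 CPM (1 of 10 higher, 6 lower). Higher and lower here mean that the libraries did not overlap. Of all genes 33.1% were lower in this way, and the share that were higher is not given here. No intestine, oocyte or moult marker was at 0 in any lysate, while 1 sperm marker and 6 embryo markers were at 0 in some. The sources used here do not say what the replicate number stands for. The part of these cell types in the results was not tested.

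Vitellogenin and rme-2 mRNA followed the replicate number in every strain. Every strain had its lowest library of each of the 7 genes at replicate 4, in the lysate as in the polysome fraction. The 6 vitellogenins together took 5.06% to 5.36% of all counts in the 4 lysates numbered 1 and 1.18% to 2.91% in those numbered 4. In the polysome fraction the share went from 3.89% to 4.19% at number 1 down to 0.453% to 0.697% at number 4.

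**Figure D1:**
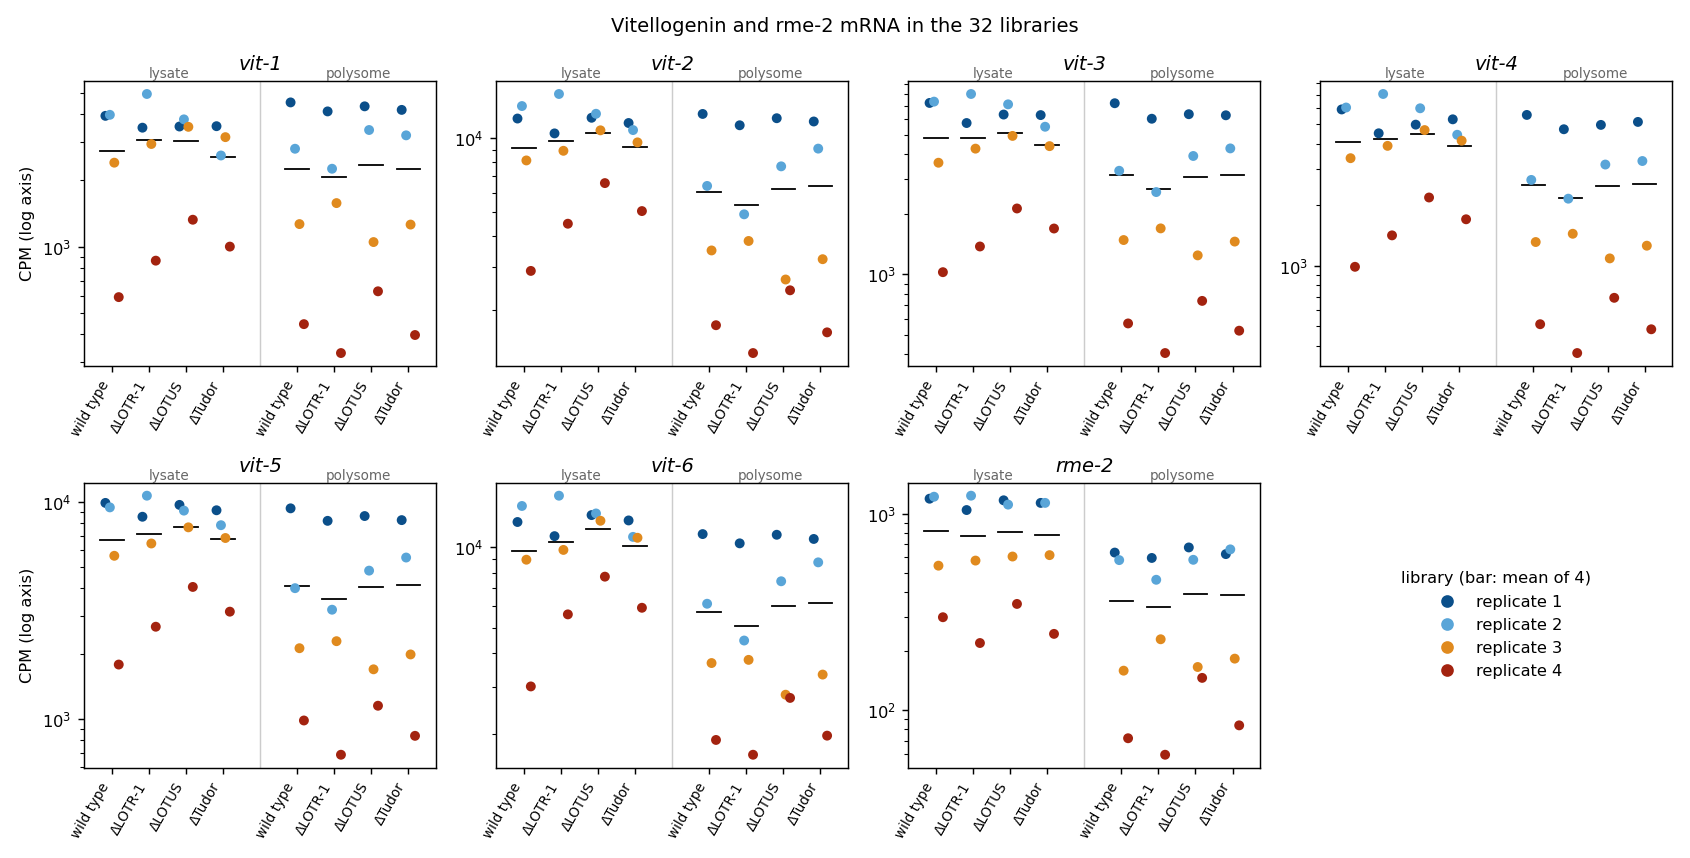
Level of each gene in each of the 32 libraries, in CPM on a log axis that differs between panels, by strain and fraction. Points are libraries coloured by replicate number and bars are means of 4. In every panel the libraries numbered 4 (dark red) are the lowest of their group, while the strains overlap.

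The gene vit-2, which encodes a vitellogenin often used as a yolk reporter, measured 12033, 13524, 8131 and 2893 CPM in the wild-type lysates numbered 1 to 4. It measured 10470, 15139, 8898 and 4499 CPM in ΔLOTR-1, 12120, 12581, 10776 and 6578 CPM in ΔLOTUS and 11540, 10803, 9626 and 5064 CPM in ΔTudor. Every lysate numbered 4 lay below every other lysate, and at each of the other numbers the wild type lay among or beside the mutants. In wild-type polysomes vit-2 measured 12561, 6406, 3503 and 1741 CPM, followed by 11297, 4912, 3828 and 1342 CPM in ΔLOTR-1, 12068, 7694, 2670 and 2413 CPM in ΔLOTUS and 11705, 9081, 3228 and 1628 CPM in ΔTudor. Number 2 lay below number 1 here in all 4 strains.

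The gene vit-6 encodes the most diverged of the vitellogenins, which is cleaved into the smaller yolk proteins. It measured 12408, 14245, 8968 and 3011 CPM in the wild-type lysates, 10986, 15565, 9756 and 5601 CPM in ΔLOTR-1, 13169, 13356, 12541 and 7750 CPM in ΔLOTUS and 12577, 10917, 10833 and 5928 CPM in ΔTudor. It spanned the least of the 7 genes across the numbers, with a 2.43-fold difference between the highest and the lowest number mean of the lysates and 5.24-fold for polysomes. The other vitellogenins, vit-1, vit-3, vit-4 and vit-5, spanned 3.21-fold (vit-5) to 4.47-fold (vit-3) between lysates and 9.39-fold (vit-5) to 11.55-fold (vit-3) between polysome libraries. At number 4 the wild-type lysate held 590 CPM of vit-1, 1026 CPM of vit-3, 987 CPM of vit-4 and 1785 CPM of vit-5, the lowest lysate of the series for each of these genes.

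The receptor gene rme-2 measured 1195, 1223, 545 and 298 CPM in the wild-type lysates numbered 1 to 4, 1046, 1238, 578 and 220 CPM in ΔLOTR-1, 1173, 1115, 607 and 348 CPM in ΔLOTUS and 1138, 1138, 617 and 245 CPM in ΔTudor. Numbers 1 and 2 lay above number 3, and number 3 above number 4, with no overlap in any strain. The same order held in the polysome fraction, where rme-2 measured 635, 582, 159 and 72.0 CPM for the wild type, then 596, 462, 230 and 59.3 CPM in ΔLOTR-1, 675, 584, 166 and 146 CPM in ΔLOTUS and 624, 660, 183 and 83.7 CPM in ΔTudor. Its number means differed 4.25-fold for lysates and 7.01-fold for polysomes, while its strain means differed by no more than 1.06-fold and 1.17-fold.

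The replicate number was tested as a term beside the strain, with edgeR's quasi-likelihood F test and Benjamini-Hochberg adjustment over all genes. All 7 genes passed an adjusted p of 0.05 in the lysates, where 87.7% of all genes did, and all 7 in the polysome fraction, where 78.5% did, so the count of members is near the background. Adjusted p-values ran from 1.5e-09 (rme-2) to 0.000143 (vit-6) for lysates and from 8.01e-10 (vit-3) to 4.47e-08 (vit-6) for polysomes. Without the libraries numbered 4, 5 of 7 still passed in the lysates, with vit-1 at adjusted p = 0.264 and vit-6 at 0.0793, and all 7 passed in the polysomes. The shares of all genes that passed in these smaller fits are not given here. All 4 libraries numbered 4 lay below all 8 numbered 1 and 2 for 7 of 7 genes in either fraction, as they did for 33.1% of all genes in the lysates and 28.7% in the polysomes. All libraries numbered 4 also lay below all of those numbered 3 for 7 of 7 genes in either fraction (23.1% of all genes for lysates, 12.5% for polysomes). The libraries numbered 3 lay below all of those numbered 1 and 2 for 3 of 7 genes in the lysates (28.8% of all genes) and for 7 of 7 in the polysomes (24.9%).

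Of the variance of log2 CPM in the lysates, the replicate number held 97.4% for rme-2 and 77.3% for vit-6, the lowest, with 84.8% to 92.9% for vit-1 to vit-5 and a median of 86.3% over all genes. The strain held 0.649% for rme-2 and 7.36% for vit-6. In the polysome fraction the number held 93.6% (vit-6) to 97.2% (vit-3), against a median of 77.8% over all genes. By group mean, the 4 lysate groups stood above the 4 polysome groups for each of the 7 genes, and no gap between neighbouring groups in that order was larger than the larger SD of the pair. For the summed vitellogenins the order ran from 42464 ± 12731 CPM in the ΔLOTUS lysates to 20911 ± 16983 CPM in the ΔLOTR-1 polysomes (SD, n = 4), and for rme-2 from 815 ± 466 CPM in the wild-type lysates to 337 ± 239 CPM in the ΔLOTR-1 polysomes.

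The make-up of the vitellogenin pool differed between the libraries numbered 1 and 4. Shares are of the summed vitellogenin counts of a library. In the lysates numbered 1, vit-6 made up 25.4% ± 1.0 and vit-3 13.2% ± 0.59 (SD over 4 strains), while in those numbered 4, where the pool was smallest, vit-6 made up 31.9% ± 2.0 and vit-3 9.11% ± 0.66. The ranges did not overlap, at 24.1% to 26.4% against 29.3% to 34.1% for vit-6 and 12.7% to 14% against 8.4% to 9.97% for vit-3. Likewise vit-2 went from 23.4% to 24.3% up to 27.4% to 28.1%, and vit-1 from 7.05% to 7.93% down to 5.26% to 5.73%. The shares of vit-4 and vit-5 were lower as well, at 10% to 11.5% against 8.6% to 9.59% and 18.9% to 19.6% against 16.2% to 17.3%. The same differences stood in the polysome fraction, where vit-3 was at 13.4% to 14.3% at number 1 and 8.42% to 9.24% at number 4. The share of vit-1 did not follow the size of the pool over all numbers, with means of 9.09%, 10.8%, 10.1% and 7.09% in the polysomes numbered 1 to 4 and 7.48%, 7.19%, 7.89% and 5.48% in the lysates. These shares were not tested. Salmon divides reads between near-identical transcripts. Counts that were not whole numbers stood in 32 of 32 libraries for each of vit-1 to vit-5, in 28 for vit-6 and in 15 for rme-2. Values of single vitellogenins, vit-6 included, are thus uncertain. How much of each count was divided is not given here. In the WBcel235 gene table vit-4 and vit-3 are neighbours, with 0 protein-coding genes between them.

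**Figure D2:**
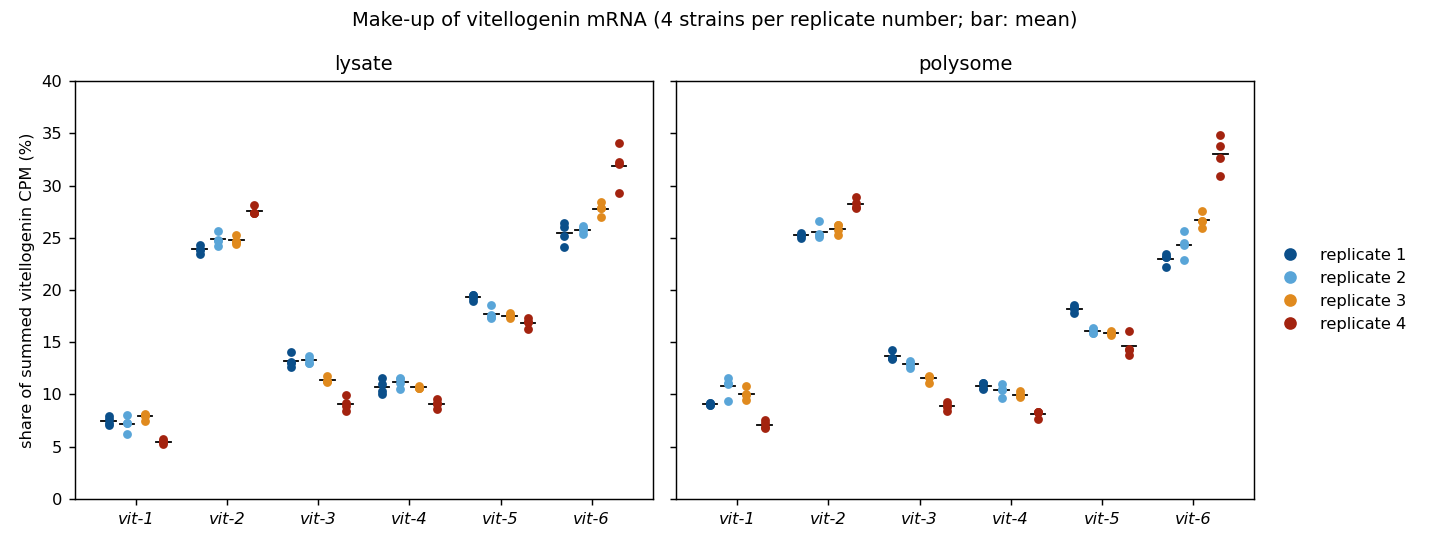
Share of each vitellogenin in the summed vitellogenin CPM of a library, in percent, for lysates and polysomes; points are the 4 strains at a replicate number and bars their mean. At number 4 (dark red) the shares of vit-6 and vit-2 are above, and those of vit-1, vit-3, vit-4 and vit-5 below, all libraries numbered 1.

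The comparison of each mutant with the wild type asks whether yolk gene mRNA differs when LOTR-1 or a domain of it is missing. In edgeR, none of the 7 genes was called in any mutant when all libraries were used. With its quasi-likelihood test 0 of 7 passed in the ΔLOTR-1, ΔLOTUS and ΔTudor lysates, where 0.27%, 0.144% and 0.0753% of all genes did, and 0 of 7 in their polysome fractions, where 0.221%, 0.0585% and 0.0975% did. No gene of the 7 reached an unadjusted p under 0.05 in these comparisons. The share of all genes under that unadjusted p is not given here or for the comparisons below. DESeq2 called 0 of 7 in each, beside 126, 183 and 87 of 15933 genes in the ΔLOTR-1, ΔLOTUS and ΔTudor lysates. For their polysome fractions it called 63, 44 and 33 of 15372 genes. The direct comparisons of ΔLOTUS with ΔLOTR-1, ΔLOTUS with ΔTudor and ΔTudor with ΔLOTR-1 also called 0 of 7, beside 0.176%, 0.119% and 0.0941% of all genes for lysates and 0.137%, 0.0715% and 0.104% for polysomes, with 0 of 7 at an unadjusted p under 0.05. Without the replicate number in the fit the standard errors were wide, from 0.40 to 0.61 on the log2 scale for lysates and 0.70 to 0.96 for polysomes.

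Once the replicate number entered as a block, the standard errors were 0.11 to 0.21 for lysates and 0.16 to 0.20 for polysomes, and still 0 of 7 genes were called in the lysates, where 7.82%, 20.6% and 13.6% of all genes were, and 0 of 7 in the polysomes, where 0.631%, 1.05% and 0.228% were. Vitellogenin estimates in the ΔLOTUS lysates were all above 0, from 0.28 (SE 0.18) for vit-3 to 0.41 (SE 0.19) for vit-6, the member nearest the threshold at an adjusted p = 0.151 in edgeR and the 1 member with an unadjusted p under 0.05. Estimates for rme-2 in lysates were 0.04 (ΔLOTUS), -0.15 (ΔLOTR-1) and -0.11 (ΔTudor), each with an SE of 0.11. Without the libraries numbered 2, the block fit called 2 of the 7 in the ΔLOTUS lysates, vit-2 at adjusted p = 0.0431 and vit-6 at adjusted p = 0.0329. The share of all genes called in that smaller fit is not given here, and with all numbers it was 20.6%. Without the libraries numbered 4 the ΔLOTUS estimates were 0.13 for vit-6 and 0.04 for vit-3. In the fit without the block, leaving out the wild-type lysate numbered 4 alone turned the ΔLOTUS estimates of vit-2, vit-3, vit-5 and vit-6 to -0.10, -0.25, -0.14 and -0.02. On the authors' replicate-adjusted table, tested with limma, 3 of 7 were called higher in the ΔLOTUS lysates, where 17% of all genes were called higher: vit-2 at 0.42 (SE 0.12), vit-5 at 0.39 (SE 0.11) and vit-6 at 0.51 (SE 0.13). The limma fit had the strain as its only term and did not account for the adjustment made beforehand. Its p-values and SEs may thus be too small.

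Library by library in the lysates, the ratios of the summed vitellogenins to the wild type were highest at number 4 in all 3 mutants. For vit-6 the ratio of ΔLOTUS to the wild type was 1.06, 0.938, 1.40 and 2.57 at numbers 1 to 4, and for the summed vitellogenins it was 0.969, 0.952, 1.37 and 2.33. ΔTudor gave 0.941, 0.771, 1.21 and 1.80 for the sum, and ΔLOTR-1 gave 0.850, 1.13, 1.12 and 1.60. All 3 mutants lay above the wild type at number 4 for each of the 6 vitellogenins, as they did for 33% of all genes, while rme-2 there was at 0.739 (ΔLOTR-1), 1.17 (ΔLOTUS) and 0.823 (ΔTudor). The order of the lysates numbered 4 was the reverse of that of the larval moult markers, which summed to 123.5 CPM in the ΔLOTUS library, 314 CPM in that of ΔTudor, 548 CPM in that of ΔLOTR-1 and, at the top, 631 CPM for the wild type; the part of these markers in the result was not tested. In the polysome fraction the ratios at number 4 lay on both sides of the wild type, at 0.780, 1.36 and 0.949 for the summed vitellogenins of ΔLOTR-1, ΔLOTUS and ΔTudor. For rme-2 the polysome ratio of ΔLOTUS was 1.06, 1.00, 1.04 and 2.03.

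**Figure D3:**
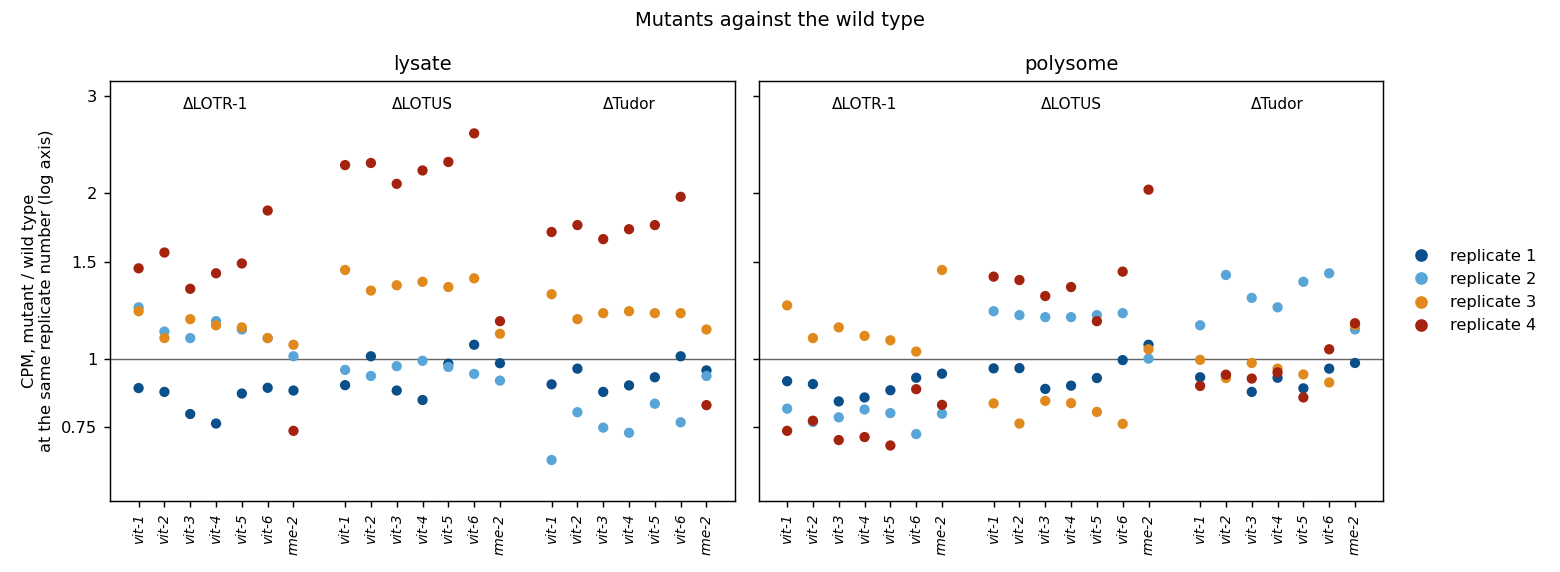
Ratio of mutant to wild-type CPM at the same replicate number (log axis) for the 7 genes in lysates and polysomes; each point is 1 pair of libraries, coloured by number. In the lysates the pairs numbered 4 (dark red) lie at 1.34 to 2.57 for the vitellogenins and at 0.739 to 1.17 for rme-2. The lysate pairs numbered 1 lie at 0.762 (vit-4, ΔLOTR-1) to 1.06 (vit-6, ΔLOTUS).

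Translational efficiency relates a gene's polysome level to its lysate level, and each mutant was compared with the wild type by the interaction of strain and fraction. None of the 7 genes passed, with 0 at an unadjusted p under 0.05, in either the fit without the block, where 0%, 0% and 0% of all genes passed in ΔLOTR-1, ΔLOTUS and ΔTudor, or the fit with the lysate as block, where 0.0554%, 0% and 0.00615% passed. DESeq2 called 0 of 7, and 5, 8 and 6 genes over all. As a description, the median interaction estimate of the vitellogenins on the log2 scale was -0.28 without the block and -0.39 with it in ΔLOTR-1, -0.15 and -0.29 in ΔLOTUS, and 0.08 and -0.12 in ΔTudor. The nearest member to the threshold was vit-6 in ΔLOTR-1, at -0.43 (SE 0.45) with the block and adjusted p = 1 in edgeR.

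In the polysome fraction, relative to the lysate it came from, rme-2 mRNA was lower in 16 of 16 lysates, and the vitellogenins were near their lysate level at replicate 1 and well below it at replicates 3 and 4. For rme-2 the log2 ratio of polysome to lysate CPM was -0.91, -1.07, -1.78 and -2.05 in the wild type at numbers 1 to 4, and it lay between -0.79 and -1.89 in the mutants. For vit-2 it was 0.06, -1.08, -1.21 and -0.73 in the wild type, 0.11, -1.62, -1.22 and -1.75 in ΔLOTR-1, -0.01, -0.71, -2.01 and -1.45 in ΔLOTUS and 0.02, -0.25, -1.58 and -1.64 in ΔTudor. At number 1 no vitellogenin was outside -0.24 to 0.30, while rme-2 was at -0.80 to -0.91 there.

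The 7 genes differed in how often the ratio was below 0. The ratio of rme-2, vit-5 and vit-6 was below 0 in 16 of 16 lysates, as it was for 21.3% of all genes. That of vit-4 was below 0 in 15, vit-3 in 14, vit-2 in 13 and vit-1 in 11. For vit-2, vit-3 and vit-4 the ratios above 0 were all at number 1. They reached only 0.11, 0.07 and 0.07, so these counts turn on values near 0. Among the vitellogenins vit-1 had the highest ratio in 16 of 16 lysates, at a mean log2 of -0.60 against -1.14 for vit-5, the lowest. The lowest of the 7 was rme-2 in 8 lysates, vit-5 in 7 and vit-6 in 1. At number 4 the wild-type ratios of the vitellogenins, -0.41 to -0.94, were above those of all 3 mutants, at -1.08 to -1.96. For rme-2 the wild-type ratio there, -2.05, was below those of the mutants, at -1.25 to -1.89. Each ratio divides by 1 lysate, and the wild-type lysate numbered 4 held the least of every vitellogenin. The share of all genes with such an order is not given here.

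**Figure D4:**
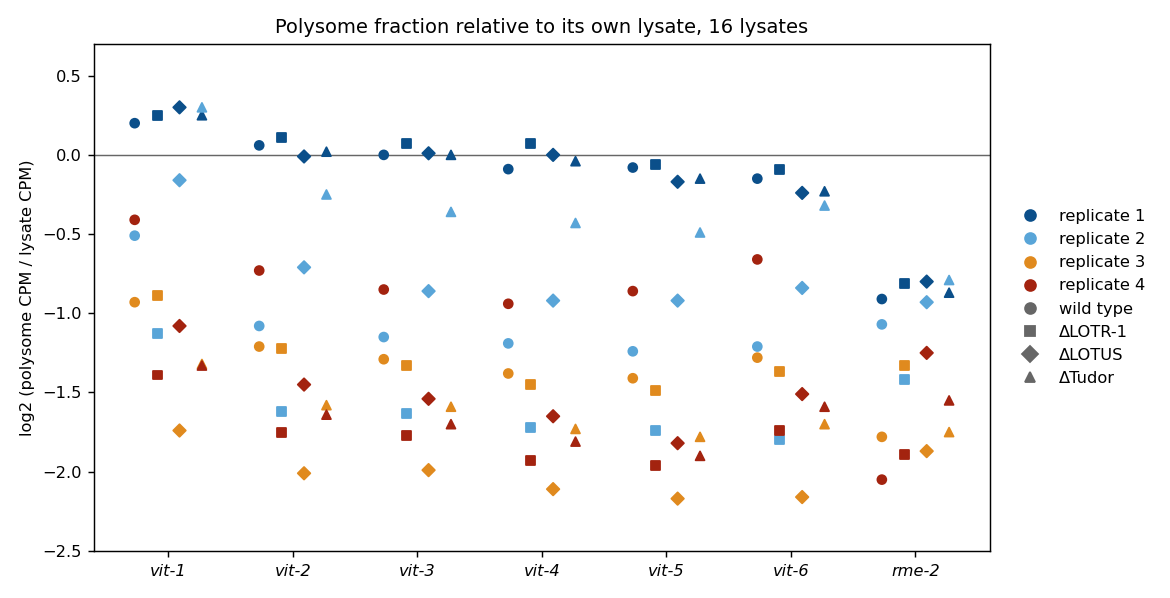
Log2 ratio of polysome to lysate CPM for each gene in the 16 lysates; colour gives the replicate number and shape the strain, and the line marks equal levels. Ratios of the vitellogenins spread from 0.30 to -2.17, with number 1 at -0.24 to 0.30, and those of rme-2 lie between -0.79 and -2.05.

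In the edgeR fit without the block, 0 of 7 genes passed between the fractions in any strain, where 19.3% of all genes did for the wild type, 23.3% for ΔLOTR-1, 23.6% for ΔLOTUS and 24% for ΔTudor, and 0 of 7 reached an unadjusted p under 0.05. With each lysate as block, 5 of 7 were lower in wild-type polysomes (26.6% of all genes were), 7 of 7 in those of ΔLOTR-1 (27.8%), and 6 each in those of ΔLOTUS (27.8%) and ΔTudor (28.5%). The difference for rme-2 was -1.45 (SE 0.22, adjusted p = 1.7e-05, edgeR) for the wild type, -1.36 (SE 0.22) for ΔLOTR-1, -1.21 (SE 0.21) for ΔLOTUS and -1.24 (SE 0.21) for ΔTudor. For vit-6 it was -0.83 (SE 0.32, adjusted p = 0.034, edgeR) for the wild type, -1.26 for ΔLOTR-1, -1.19 for ΔLOTUS and -0.96 for ΔTudor. The genes not called were vit-1 in the wild type, ΔLOTUS and ΔTudor, at -0.41, -0.67 and -0.53, and vit-2 in the wild type, at -0.74.

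Cell type markers also differed between the fractions. In the block fit all 9 oocyte markers were lower in the polysomes of every strain, where 26.6% (wild type) to 28.5% (ΔTudor) of all genes were. Their medians were -1.31 to -1.46 on the log2 scale. Their summed level was 272.1 to 3472 CPM against 1080 to 7250 CPM over the 16 lysates. Of 7 intestine markers 5 were higher in every strain, where 29% of all genes were for the wild type, 30.5% for ΔLOTR-1, 31.4% for ΔLOTUS and 30.6% for ΔTudor, with medians of 0.67 to 0.81, opposite in sign to the vitellogenins. Their summed level was 6457 to 10319 CPM in polysomes against 2878 to 5806 CPM in lysates, without overlap. Without the block 0 of the 9 oocyte markers and 1 (wild type) or 2 (each mutant) of the 7 intestine markers passed. Of all genes 19.3% (wild type) to 24% (ΔTudor) did in that fit, in either direction. The part of these cell types in the polysome differences was not tested.

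Only the call of rme-2 held in all 4 strains whichever replicate number was left out, with adjusted p-values of at most 0.00434 in edgeR. Without the libraries numbered 4 it was the 1 gene of the 7 called in each strain. Without those numbered 3 it was the 1 gene called in the wild type, ΔLOTUS and ΔTudor, against 6 genes in ΔLOTR-1. Without those numbered 2, 1 gene was called in the wild type, 3 in ΔLOTR-1 and 6 each in ΔLOTUS and ΔTudor. Without those numbered 1 the counts were 6, 7, 7 and 7. The shares of all genes called in these smaller fits are not given here, so the counts have no background beside them.

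Genes around the yolk genes were described from 5 lists, and without the block no gene of any list was called in a mutant, in lysates, polysomes or translational efficiency. Of 15 known regulators of vitellogenin transcription, translation or the insulin and TOR pathways that act on it, the block fit called 1 higher in the ΔLOTR-1 lysates (2.46% of all genes were called higher), 6 in ΔLOTUS (9.47%) and 3 in ΔTudor (5.7%), and 0 lower. Among them daf-2, which encodes the insulin receptor, was higher by 0.56 (ΔLOTR-1), 0.83 (ΔLOTUS) and 0.75 (ΔTudor) on the log2 scale, each with an SE of 0.12. The TOR kinase gene let-363 was higher by 0.49 (ΔLOTUS) and 0.47 (ΔTudor), with an SE of 0.08. Also called were akt-1, which encodes a kinase downstream of the insulin receptor, at 0.37 in ΔLOTUS and 0.29 in ΔTudor, and lrp-2, a relative of the low-density lipoprotein receptor that promotes vitellogenin expression, at 0.48 in ΔLOTUS. The list's median in ΔLOTUS was 0.21 against -0.01 over all genes.

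Of 16 endocytosis genes that carry yolk from the oocyte membrane inwards, 2 were called higher with the block in the ΔLOTUS lysates, where 9.47% of all genes were, rme-8, a J-domain protein of endosomes, at 0.54 (SE 0.10) and rab-10, an endosomal GTPase, at 0.24 (SE 0.06), and 1, rme-8, in ΔTudor at 0.41 (SE 0.10), where 5.7% of all genes were. These shares of the list are near the background. Of 15 genes of lipid synthesis and lipoprotein assembly, 1 was, mdt-15, a Mediator subunit, in ΔLOTUS at 0.49 (SE 0.15), a share near the same background. Of 4 other genes with low-density lipoprotein receptor repeats, lrp-2 alone was. Of 11 RNA-binding proteins and cofactors that act on rme-2 or other oocyte mRNAs, 3 were higher in ΔLOTUS (9.47% of all genes), the poly(A) polymerase gene gld-2 at 0.65 (SE 0.14), lin-41 at 0.49 (SE 0.16) and gld-3 at 0.40 (SE 0.09), and 1 in ΔTudor (5.7% of all genes), gld-2 at 0.49 (SE 0.14). In the wild-type polysomes against lysates, 10 of these 11 were lower and 1 higher with the block (26.6% and 29% of all genes were), and 3 lower without it (9.72% of all genes were), with medians of -1.62 and -1.40; gld-1, whose product represses rme-2, had a difference of -2.30 (SE 0.18) with the block.

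Genes whose lysate pattern was most like that of the yolk genes were ranked by Pearson r of log2 CPM over the 16 lysates, among 7540 genes with a mean of 10 CPM or more, as a description. Like the mean of vit-2 to vit-6 were tbh-1, which encodes tyramine beta-hydroxylase, at r = 0.995, C39D10.7 at 0.988, imb-1, an importin beta, at 0.983, and tag-153 and cec-2 at 0.980. Like rme-2 were gfat-2 at 0.999 and cpg-1, memi-3, egg-3 and puf-5 at 0.998, of which cpg-1 encodes an eggshell proteoglycan, egg-3 an oocyte pseudophosphatase and puf-5 an oocyte RNA-binding protein. Since 1184 and 3152 genes respectively reached r = 0.9, and all points share the replicate numbers, the means of the numbers were subtracted and the ranking repeated. The vitellogenin mean then went most closely with tbh-1 (0.981), C39D10.7 (0.968), skpo-1 (0.953), a peroxidase gene, ule-5 (0.922) and clh-1 (0.920), a chloride channel gene, and 10 genes reached 0.9. The receptor went most closely with nasp-2 (0.961), memi-3 (0.959), cpg-3 (0.958), gfat-2 (0.958) and cpg-2 (0.955), and 28 genes reached 0.9. After this subtraction the 6 vitellogenins still had r of 0.920 to 0.996 with each other, but of 0.221 to 0.410 with rme-2, down from 0.855 to 0.952 before it.

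**Figure D5:**
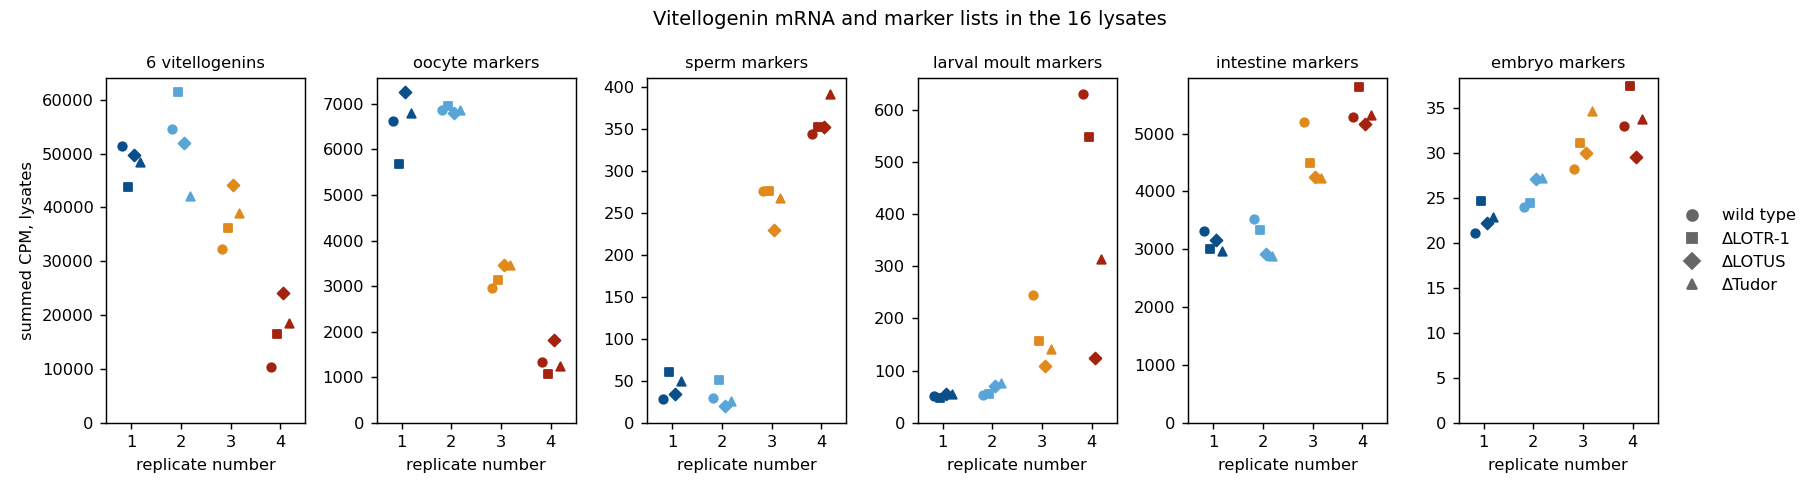
Summed CPM of the 6 vitellogenins and of the marker lists of oocytes, sperm, larval moult, intestine and embryos in the 16 lysates, by replicate number; each panel has its own axis from 0, and shape gives the strain. At number 4 the vitellogenin and oocyte sums are low, the sperm and intestine sums are high, and the moult markers spread from 123.5 CPM in ΔLOTUS to 631 CPM in the wild type.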

How the data were processed

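Per the labels' protocols, RNA was extracted with Trizol and a stranded mRNA kit made the libraries. The submitters' processing notes name Salmon and DESeq2, without versions. Build, annotation and use of the strand in counting were not given in the sources used here, so no coordinates are printed. The deposited expected counts per gene, 15.3% of whose positive values were not whole, were rounded before testing. The authors' second deposited table holds replicate-adjusted values, treated as a score because how they were adjusted is not given here, and served only as an alternative.

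R 4.3.3 with edgeR 4.0.16 gave the main test, the quasi-likelihood test after filterByExpr and TMM normalisation, with Benjamini-Hochberg adjustment over 15939 genes in the lysates, 15378 in the polysomes and 16253 over all 32 libraries, called at an adjusted p under 0.05. The term was the strain within a fraction, and strain, fraction and their interaction over all libraries; the replicate number was tested beside the strain. CPM are on TMM library sizes. Fold changes are log2. Alternatives were DESeq2 1.42.0, library totals without TMM, no filter on low counts, the replicate number (or lysate) as block, leaving out each library or number, and limma 3.58.1 on the log2 of the replicate-adjusted values, scaled to CPM, plus 1; the block fits without each number were added after seeing the data. The scripts were tested on simulated counts.

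Lysates and polysomes are paired by the study's design. Deviations from group means of same-numbered libraries of different strains correlated with r of 0.917 to 0.969 (lysates) and 0.799 to 0.944 (polysomes) over 16253 genes, so the numbers pair the samples. The samples are biological replicates per the labels, which name no separate cultures, and p-values cover only the spread among them. No library repeated another: the smallest chi-square per degree of freedom among 48 pairs within groups was 21.4. The intestine marker list had 7 of its 8 genes in the table.

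Named were all 7 members, up to 4 genes per list called without the block or, where none was, called with it and of largest change, and 5 genes per pattern ranking; gld-1 was named after its values were seen. The members and lists were chosen with earlier results of these data known. All 7 members matched the RefSeq table of WBcel235.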

Additional observations from a re-analysis of the deposited data

Results flagged for a closer look

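Of 64 groups of 4 libraries examined, 2 had a library far from the other 3, where chance gives about 1 in 20. Both were the ΔLOTUS lysate numbered 4, which was the lowest of its group at 1325 CPM for vit-1 and at 7750 CPM for vit-6, with the gap to the next library taking 0.884 and 0.855 of the group's range, past Dixon's critical value. The lysates numbered 4 were the lowest of their group in every strain.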

How the results depend on the processing

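None of the 7 genes was called between a mutant and the wild type, between mutants or in translational efficiency under DESeq2, library totals, no filter on low counts or the replicate block, and on the replicate-adjusted table the 1 exception was the ΔLOTUS lysates with 3 genes called. Leaving out 1 library or number gave 0 genes there except in the ΔLOTUS lysates, at 0 to 2. The shares of all genes called in fits with libraries left out are not given here. Between polysomes and lysates the block raised the count from 0 to 5 in the wild type, 7 in ΔLOTR-1 and 6 each in ΔLOTUS and ΔTudor; leaving out 1 library or number, with and without the block, gave 0 to 6 in the wild type and 0 to 7 in each mutant. The cause was not tested. Scaling by library totals moved the median log2 change of all genes by 0.11 to 0.14 in the lysate comparisons with the wild type and by -0.33 to -0.37 between the fractions.

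Of 406 single-gene estimates under another setting, 48 changed sign, none of them called and none above 0.2 in size. With 1 replicate left out, 288 of 1344 changed sign, none of them called, and these reached 0.84 in size. The expected counts of 1 library have no interval of their own, and 4 libraries per group limit what could be detected. Among the comparisons printed above, the lysate estimates of rme-2 without the block were -0.11 (ΔLOTR-1), -0.05 (ΔLOTUS) and -0.11 (ΔTudor). They turned to 0.01, 0.08 and 0.05 in that order under library totals. The ΔLOTUS estimate turned to 0.04 under the replicate block. On the replicate-adjusted table the ΔLOTUS estimate turned to 0.11 and that of ΔTudor to 0.04. The ranges below likewise cover only comparisons printed above.
With 1 library or number left out, the estimates that changed sign ranged over -0.42 to 0.22 (rme-2, ΔLOTR-1, lysate), -0.30 to 0.23 (rme-2, ΔLOTUS, lysate), -0.37 to 0.18 (rme-2, ΔTudor, lysate), -0.81 to 0.13 (vit-1, ΔTudor, polysome to lysate), -0.10 to 0.54 (vit-2, ΔLOTUS, lysate), -0.25 to 0.49 (vit-3, ΔLOTUS, lysate), -0.14 to 0.53 (vit-5, ΔLOTUS, lysate), -0.02 to 0.63 (vit-6, ΔLOTUS, lysate) and -0.88 to 0.11 (vit-6, ΔLOTR-1, translational efficiency).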
